A study of Homo sapiens with 18 samples.

Results

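The transcripts described here encode the machinery that makes and transports the peptides shown by MHC class I. They are TAP1, TAP2, TAPBP, PSMB8, PSMB9, PSMB10, PSME1, PSME2, ERAP1 and ERAP2, 10 of the 43236 gene symbols in the count table, and each was matched by its symbol. All 10 passed the filter on low counts and were among the 16291 genes tested. They were selected on measured values, of which the known one is the height of TAP1 in PRT3789 at 48 and 72 h. For that reason levels and fold changes of these genes at those times are given as a description, with no p-value, and support no statement.

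NCI-H1693 is an established line of human non-small cell lung cancer. It lacks SMARCA4 according to its labels, a background that treated and control cells share. The cells received 50 nM PRT3789, a degrader selective for SMARCA2, or DMSO, its vehicle. The 6 groups are PRT3789 and DMSO at 6 h, PRT3789 and DMSO at 48 h, and PRT3789 and DMSO at 72 h, each with 3 libraries of poly(A) RNA. A SWI/SNF chromatin remodeller carries either SMARCA2 or SMARCA4 as its motor, and all results rest on 1 cell line and 1 dose.

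Proteasomes cut cytosolic proteins into peptides. In the immunoproteasome, PSMB8, PSMB9 and PSMB10 replace the constitutive catalytic subunits PSMB5, PSMB6 and PSMB7, and the PA28 cap made of PSME1 and PSME2 can bind the core. TAP1 and TAP2 pair to pump peptides into the endoplasmic reticulum, tapasin (TAPBP) holds class I molecules at the transporter, and ERAP1 and ERAP2 trim the peptides there. Interferon gamma is the classical inducer of most of these genes.

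TAP2, PSMB8, TAP1 and PSMB9 lie side by side in the MHC class II region of chromosome 6. In RefSeq's GRCh38.p14 annotation TAP2 spans 32821831 to 32838739, PSMB8 32840717 to 32844679 and TAP1 32845209 to 32853704, all on the minus strand. PSMB9 spans 32854192 to 32859851 on the plus strand. TAP1 and PSMB9 thus run apart from starts that are 488 bases from each other. TAPBP lies farther along the same chromosome (33299694 to 33314078, minus strand). PSMB10 is on chromosome 16 (67934506 to 67936850, minus strand). PSME1 (24136194 to 24138962, plus strand) and PSME2 (24143365 to 24146610, minus strand) are neighbours on chromosome 14. ERAP1 (96760813 to 96935854, minus strand) and ERAP2 (96875984 to 96919716, plus strand) overlap on chromosome 5.

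The windows at the first listed start of TAP1 and at the start of PSMB9 are shown whole because these 2 genes share 1 intergenic stretch and had the highest fold changes of the set at 48 and 72 h. Each window runs from 250 bases before an annotated start to 50 bases after it (RefSeq, GRCh38.p14), and the 2 windows overlap by 13 bases. Capitals mark matches to GAAANNGAAA, the core of the interferon-stimulated response element (ISRE), and to GGGNNTTTCC, an NF-kB motif, searched on both strands.
TAP1, chr6:32853655-32853954, minus strand: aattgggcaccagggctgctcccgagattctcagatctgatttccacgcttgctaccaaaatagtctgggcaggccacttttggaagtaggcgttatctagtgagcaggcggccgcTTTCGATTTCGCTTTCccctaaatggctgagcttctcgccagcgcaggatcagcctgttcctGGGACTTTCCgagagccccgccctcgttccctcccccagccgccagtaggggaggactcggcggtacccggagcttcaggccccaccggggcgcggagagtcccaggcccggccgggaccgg
PSMB9, chr6:32853942-32854241, plus strand: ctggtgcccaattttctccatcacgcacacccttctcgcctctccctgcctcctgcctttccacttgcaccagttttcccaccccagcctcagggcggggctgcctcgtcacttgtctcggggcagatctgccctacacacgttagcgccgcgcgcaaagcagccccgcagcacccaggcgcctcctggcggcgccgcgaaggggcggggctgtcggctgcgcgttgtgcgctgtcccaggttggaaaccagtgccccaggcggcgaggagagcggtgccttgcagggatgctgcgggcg
The capitals in the TAP1 window are 2 overlapping ISRE cores on the opposite strand, 134 to 119 bases before the start, and 1 NF-kB match 72 to 63 bases before it. The PSMB9 window had neither motif. Measured from the PSMB9 start, the doubled ISRE core of TAP1 lies 354 to 369 bases upstream, outside the PSMB9 window.

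The other 8 genes are shown by the stretch around their ISRE core only, again with the core in capitals, because 9 of the 10 genes had one.
TAP2, chr6:32838778-32838807, minus strand: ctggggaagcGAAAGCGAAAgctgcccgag
TAPBP, chr6:33314073-33314108, minus strand: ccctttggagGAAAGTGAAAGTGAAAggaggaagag
PSMB8, chr6:32844032-32844061, minus strand: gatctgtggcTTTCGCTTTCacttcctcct
PSMB10, chr16:67936852-67936881, minus strand: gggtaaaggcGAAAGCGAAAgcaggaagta
PSME1, chr14:24136189-24136218, plus strand: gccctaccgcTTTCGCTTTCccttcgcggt
PSME2, chr14:24146619-24146648, minus strand: cctggggagtGAAAGCGAAAgcccgggcga
ERAP1, chr5:96807924-96807953, minus strand: cgggctccacTTTCACTTTCggtcctgggg
ERAP2, chr5:96876460-96876489, plus strand: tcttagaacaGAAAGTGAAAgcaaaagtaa
The core ended 49 bases before the start in TAP2, 19 in PSME2, 12 in PSMB10 and 5 in TAPBP, where 2 overlapping cores were found. In ERAP2 it ended 21 bases before the second listed start, and the window at the first listed start held no core. The core spanned the second annotated start of PSMB8. Counting the start base itself, it began at base 3 from the first listed start of ERAP1 and at base 6 from the start of PSME1. Over all 14 windows of the 10 genes, 9 held a core, against 3.57% of the 35116 windows in the RefSeq table. NF-kB matches were found in the windows of TAP1 and TAPBP, against 1.91% of all windows. The STAT motif TTCNNNGAA was in 2 windows (the second of PSMB8 and the second of TAP1, neither shown whole; 7.66% of all windows), the cyclic AMP element core TGACG in 3 (24.6%) and the AP-1 motif TGANTCA in 0 (7.71%). A match describes letters in a window and is no measure of binding.

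Library totals ran from 23154484 to 31094797 counts, and counts of the 10 genes ran from 395 to 45686 in a library. Levels are in CPM, the count of a gene over the library total scaled by trimmed mean of M values. The median SD of log2 CPM between libraries of 1 group was 0.149 in PRT3789 and 0.166 in DMSO at 6 h, 0.0642 in PRT3789 and 0.118 in DMSO at 48 h, and 0.0666 in PRT3789 and 0.0718 in DMSO at 72 h. Libraries also differed with transcript length: at 6 h the Spearman correlation across genes between transcript length and the departure of a library from its time-point mean ran from -0.608 to 0.615. At 48 h it was 0.309, 0.189 and 0.313 in PRT3789 and 0.0122, -0.406 and -0.313 in DMSO. PSMB8, PSMB9, PSMB10, PSME1 and PSME2 have short transcripts (0.79 to 1.12 kb). Their values at 48 h therefore stand beside values with this trend removed, and for PSMB10 those at 72 h do too. No such values are given for the constitutive counterparts PSMB5, PSMB6 and PSMB7, which have short transcripts as well.

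Cell identity was checked on fixed markers. EPCAM, an epithelial adhesion molecule, was at 559 to 930 CPM, while the lung lineage markers NKX2-1 and NAPSA reached only 0.895 and 3.05 CPM. Of 12 blood cell markers 1 averaged at least 1 CPM (CD68), 3 were at 0 in every library and the leukocyte antigen PTPRC reached 0.953 CPM. Their summed level was 12.9 to 15.5 CPM in PRT3789 and 16.6 to 18 CPM in DMSO at 6 h, without overlap. It was 6.23 to 6.71 CPM in PRT3789 and 9.06 to 10.1 CPM in DMSO at 48 h, and 5.58 to 6.7 CPM in PRT3789 and 8.8 to 9.71 CPM in DMSO at 72 h. CD68 ran from 3.27 to 15.1 CPM and no other blood cell marker exceeded 1.91 CPM. This sum thus rests largely on CD68 and is no measure of blood cells. The 8 epithelial markers overlapped at 6 h (8030 to 9110 CPM in PRT3789 and 8680 to 10000 CPM in DMSO). They summed to 4700 to 4930 CPM in PRT3789 against 10200 to 11000 CPM in DMSO at 48 h, and to 4140 to 4360 CPM in PRT3789 against 9160 to 9940 CPM in DMSO at 72 h. KRT8 ran from 1760 to 5310 CPM and KRT18 from 1290 to 4310 CPM over the 18 libraries, and no other of these markers exceeded 930 CPM. This sum thus rests mostly on KRT8 and KRT18 and does not describe the other epithelial markers. The 10 endothelial and fibroblast markers overlapped too at 6 h (121 to 138 CPM in PRT3789 and 128 to 144 CPM in DMSO). They summed to 85.1 to 88.7 CPM in PRT3789 and 112 to 129 CPM in DMSO at 48 h, and to 100 to 113 CPM in PRT3789 and 124 to 134 CPM in DMSO at 72 h. Of these 10 genes 3 averaged at least 1 CPM. LUM was at 61.5 to 128 CPM and COL1A1 at 11.7 to 24.7 CPM over the 18 libraries, and no other exceeded 3.1 CPM. The sums thus rest mostly on LUM and COL1A1 and are no measure of cells of these types. The part of the marker shifts in the results was not tested, and in bulk RNA fewer cells of a type and less RNA per cell cannot be told apart. SMARCA2 transcript, which does not report on degradation of the protein, was at 34.8 ± 2.35 CPM in PRT3789 and 47.2 ± 2.49 CPM in DMSO at 72 h (SD, n = 3 each).

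**Figure D1:**
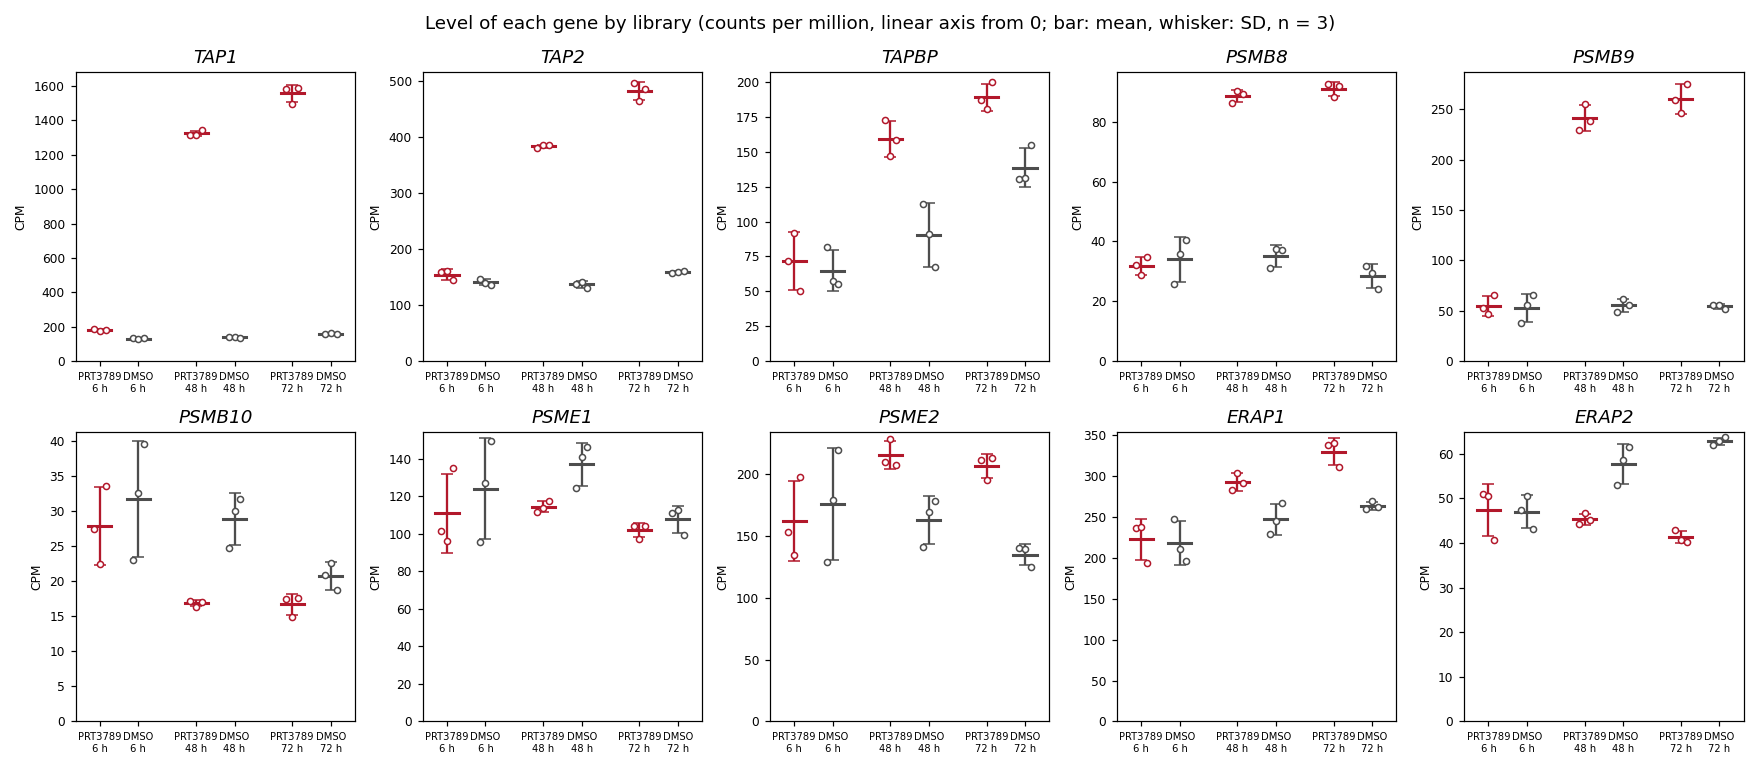
CPM of each of the 10 genes in every library (points), with the group mean (bar) and SD (whisker, n = 3), on linear axes from 0; PRT3789 is in red and DMSO in grey within each time. TAP1 in PRT3789 lay between 1313 and 1588 CPM at 48 and 72 h, above every DMSO library, whereas PSMB10 and ERAP2 lay below DMSO at those times.

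TAP1 was the gene of the set that stood farthest from DMSO. At 6 h it was at 186, 174.5 and 179 CPM in PRT3789, against 134.2, 126.5 and 132.8 CPM in DMSO. At 48 h it was at 1313, 1318 and 1343 CPM in PRT3789, against 139.3, 140.4 and 135.5 CPM in DMSO. At 72 h TAP1 stood at 1585, 1497 and 1588 CPM in PRT3789, against 158.2, 161.9 and 157.4 CPM in DMSO. The groups lay apart at all 3 times, and the spread within a group was small beside the gap. TAP1 was 9.57-fold higher in PRT3789 at 48 h (log2 fold change 3.26 ± 0.06 SE) and 9.78-fold higher at 72 h (3.29 ± 0.06). By fold change that was rank 27 at 48 h and 32 at 72 h among the 16291 genes.

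Whether values at 6 h also entered the choice of the genes is not known, and the tests at 6 h carry that limit. There TAP1 rose 1.37-fold (log2 fold change 0.46 ± 0.06, edgeR adjusted p = 4.88e-05), higher in every PRT3789 library than in any DMSO library. The call ended when the 6 h libraries were fitted apart (0.47, edgeR adjusted p = 0.0578), and it remained without any 1 library of the 18.

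TAP2, the partner of TAP1 in the transporter, was also higher, but by less. It was at 159.1, 160.5 and 144.2 CPM in PRT3789 and 146.3, 140.2 and 135.4 CPM in DMSO at 6 h, where the groups overlapped. At 48 h it was at 379.9, 385.3 and 384.9 CPM in PRT3789 and 138.4, 141.6 and 130.5 CPM in DMSO. At 72 h TAP2 stood at 495.7, 463.9 and 484.9 CPM in PRT3789 and 157.3, 158.8 and 161.4 CPM in DMSO. TAP2 was thus 2.80-fold higher at 48 h (1.49 ± 0.06) and 3.02-fold higher at 72 h (1.60 ± 0.06), with no overlap at either time.

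The ratio of the 2 transporter genes differed accordingly. Per kb of transcript, the TAP1 level was 7.26 ± 0.0714 times that of TAP2 in PRT3789 and 2.13 ± 0.0499 times in DMSO at 48 h. At 72 h it was 6.80 ± 0.0822 times in PRT3789 and 2.10 ± 0.0475 times in DMSO (SD, n = 3 each). At 6 h the ratio was 2.45 ± 0.162 in PRT3789 and 1.96 ± 0.0871 in DMSO.

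TAPBP, the chaperone that bridges the transporter and class I molecules, had the widest standard error of the set. At 6 h it was at 72, 92.12 and 50.62 CPM in PRT3789 and 81.63, 57.15 and 55.23 CPM in DMSO. At 48 h it was at 172.8, 146.8 and 158.4 CPM in PRT3789 and 112.6, 91.03 and 67.33 CPM in DMSO. By 72 h it was at 186.9, 180.7 and 199.7 CPM in PRT3789 and 130.3, 130.9 and 154.8 CPM in DMSO. The groups overlapped at 6 h and lay apart later, with TAPBP 1.76-fold higher at 48 h (0.82 ± 0.20) and 1.36-fold higher at 72 h (0.45 ± 0.20).

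The 3 inducible catalytic subunits did not move together. PSMB9, which replaces PSMB6, was at 230, 255.6 and 238.8 CPM in PRT3789 and 49.01, 61.4 and 55.83 CPM in DMSO at 48 h. At 72 h PSMB9 was at 259, 246.2 and 275.4 CPM in PRT3789 and 55.97, 56.28 and 51.52 CPM in DMSO. Every treated library was above every control library at both times. PSMB9 was 4.36-fold higher at 48 h (2.12 ± 0.16) and 4.77-fold higher at 72 h (2.25 ± 0.16).

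PSMB8, which replaces PSMB5, was at 86.36, 90.12 and 89.14 CPM in PRT3789 and 30.97, 37.42 and 37.17 CPM in DMSO at 48 h. At 72 h PSMB8 was at 92.51, 88.27 and 91.87 CPM in PRT3789 and 31.75, 29.56 and 24.03 CPM in DMSO. Again the groups did not overlap. PSMB8 was 2.52-fold higher at 48 h (1.33 ± 0.13) and 3.20-fold higher at 72 h (1.68 ± 0.13). With the length trend removed the 48 h values were 2.35 for PSMB9 and 1.54 for PSMB8.

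PSMB10, which replaces PSMB7, went the other way. It was at 17.14, 16.37 and 17.07 CPM in PRT3789 and 24.75, 30.01 and 31.77 CPM in DMSO at 48 h. At 72 h PSMB10 was at 17.52, 14.9 and 17.6 CPM in PRT3789 and 20.84, 22.65 and 18.71 CPM in DMSO. PSMB10 was 1.71-fold lower at 48 h (-0.77 ± 0.17) and 1.24-fold lower at 72 h (-0.31 ± 0.17), with the groups apart at both times. With the length trend removed these values were -0.54 and -0.25. At 6 h none of the 3 subunits was called: the log2 fold changes were 0.06 ± 0.15 for PSMB9, -0.09 ± 0.13 for PSMB8 and -0.19 ± 0.16 for PSMB10 (edgeR adjusted p 0.907, 0.82 and 0.7), with overlapping groups.

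The constitutive counterparts lay close to DMSO at the same times. PSMB6 was at -0.15 ± 0.14 on the log2 scale at 48 h (edgeR adjusted p = 0.409) and -0.03 ± 0.14 at 72 h (0.876). PSMB7 was at -0.05 ± 0.15 (0.809) and 0.13 ± 0.15 (0.507). PSMB5 was at 0.10 ± 0.09 at 48 h (0.386) and rose slightly at 72 h (0.26 ± 0.09, edgeR adjusted p = 0.0291), a call that ended without a filter (0.052) and without PRT3789 72 h replicates 1 or 3 or DMSO 72 h replicates 2 or 3 (0.0539 to 0.0986).

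Per kb of transcript, PSMB9 exceeded PSMB6 in PRT3789 and not in DMSO. The PSMB9 to PSMB6 ratio was 1.24 ± 0.0501 in PRT3789 and 0.256 ± 0.015 in DMSO at 48 h, and 1.37 ± 0.0469 in PRT3789 and 0.282 ± 0.00827 in DMSO at 72 h. For PSMB8 to PSMB5 it was 0.453 ± 0.0145 in PRT3789 and 0.193 ± 0.0112 in DMSO at 48 h, and 0.459 ± 0.0035 in PRT3789 and 0.171 ± 0.015 in DMSO at 72 h. For PSMB10 to PSMB7 it was 0.0742 ± 0.00539 in PRT3789 and 0.122 ± 0.00857 in DMSO at 48 h, and 0.0733 ± 0.0046 in PRT3789 and 0.0999 ± 0.00505 in DMSO at 72 h. At 6 h the ratios of PSMB9, PSMB8 and PSMB10 to their counterparts were 0.169, 0.125 and 0.0813 in PRT3789 and 0.157, 0.134 and 0.0866 in DMSO. The genes of each pair have transcripts of like length (PSMB5 1.04, PSMB6 0.82 and PSMB7 0.98 kb), but this need not cancel the length trend. In DMSO at 6 h the PSMB8 to PSMB5 ratio was 0.118, 0.139 and 0.145 in replicates 1, 2 and 3. Their correlations with transcript length were 0.615, -0.474 and -0.588. No ratio was computed with the trend removed.

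**Figure D2:**
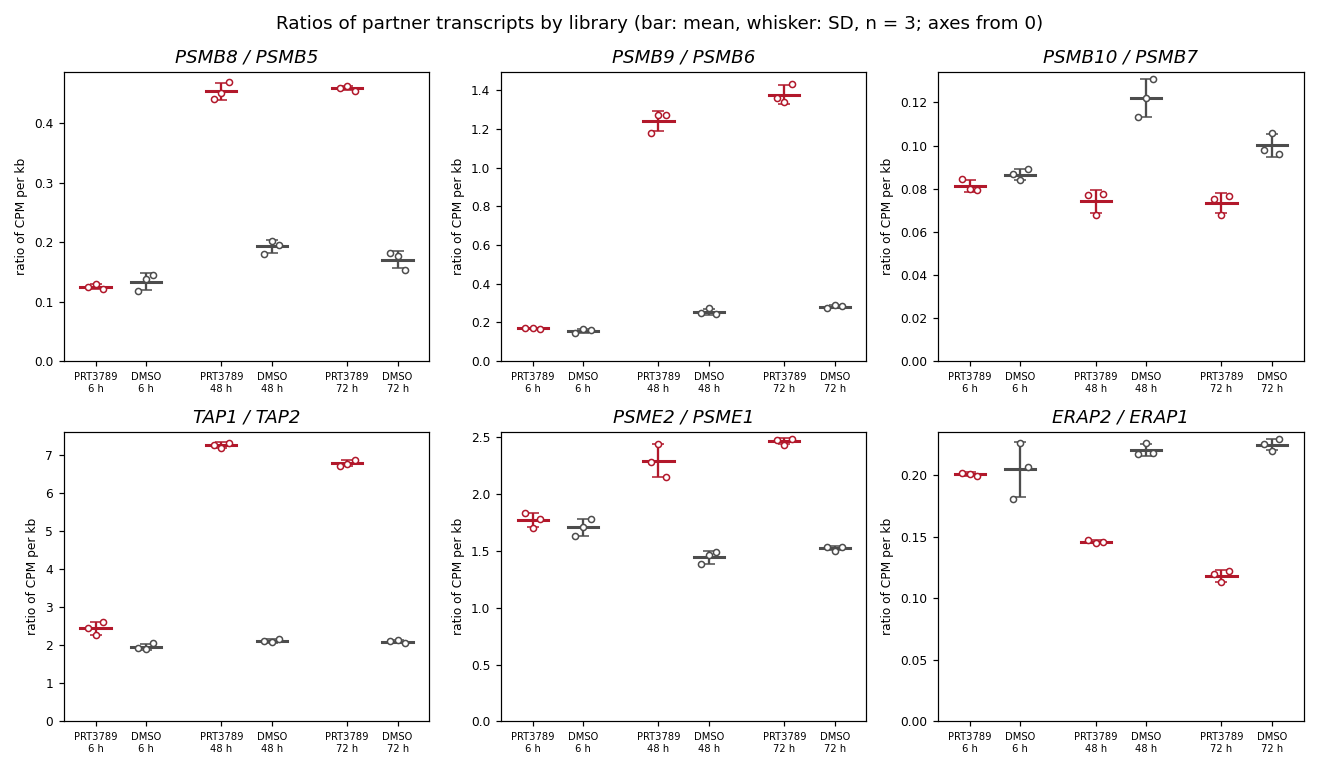
Ratio of the levels, in CPM per kb, of partner genes in every library (points), with the group mean (bar) and SD (whisker, n = 3), on linear axes from 0; PRT3789 in red, DMSO in grey. At 48 and 72 h the PSMB9 to PSMB6 ratio averaged 1.24 and 1.37 in PRT3789 against 0.256 and 0.282 in DMSO, while the PSMB10 to PSMB7 and ERAP2 to ERAP1 ratios were lower in PRT3789.

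The 2 subunits of the PA28 activator differed from each other. PSME2 was at 209.3, 228.3 and 207.3 CPM in PRT3789 and 140.8, 169 and 178.2 CPM in DMSO at 48 h, and at 210.8, 194.6 and 212.3 CPM in PRT3789 and 139.8, 139.1 and 124.6 CPM in DMSO at 72 h. It was 1.32-fold higher at 48 h (0.40 ± 0.16) and 1.53-fold higher at 72 h (0.61 ± 0.16), without overlap. RefSeq lists 6 pseudogenes of PSME2, none of which has a row in the table, so reads shared with these copies cannot be told apart from its own.

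PSME1 was at 111.8, 113.9 and 117.5 CPM in PRT3789 and 124.2, 141.1 and 146.1 CPM in DMSO at 48 h. At 72 h it was at 103.9, 97.46 and 104 CPM in PRT3789 and 111, 112.6 and 99.41 CPM in DMSO, where the groups overlapped. Its log2 fold change was -0.26 ± 0.13 at 48 h and -0.08 ± 0.13 at 72 h. With the length trend removed the 48 h value was -0.03 for PSME1 and 0.67 for PSME2. The PSME2 to PSME1 ratio per kb was 2.29 ± 0.147 in PRT3789 and 1.44 ± 0.0547 in DMSO at 48 h, and 2.46 ± 0.0279 in PRT3789 and 1.52 ± 0.015 in DMSO at 72 h. Neither gene was called at 6 h (edgeR adjusted p = 0.678 for PSME1 and 0.805 for PSME2).

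The 2 trimming aminopeptidases moved in opposite directions. ERAP1 was at 283.1, 304.2 and 292 CPM in PRT3789 and 229.7, 245 and 267 CPM in DMSO at 48 h, and at 337.7, 341.2 and 311.8 CPM in PRT3789 and 259.7, 269.6 and 262.5 CPM in DMSO at 72 h. It was 1.19-fold higher at 48 h (0.25 ± 0.09) and 1.25-fold higher at 72 h (0.32 ± 0.09).

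ERAP2 was at 44.21, 46.65 and 45.15 CPM in PRT3789 and 52.92, 58.65 and 61.6 CPM in DMSO at 48 h. At 72 h it was at 42.82, 40.7 and 40.25 CPM in PRT3789 and 62.06, 62.79 and 63.65 CPM in DMSO. The gap was clear of overlap at both times, with ERAP2 1.27-fold lower at 48 h (-0.35 ± 0.08) and 1.52-fold lower at 72 h (-0.61 ± 0.08). Per kb, ERAP2 stood at 0.146 of ERAP1 in PRT3789 and 0.220 in DMSO at 48 h, and at 0.118 in PRT3789 and 0.225 in DMSO at 72 h. The annotated span of ERAP1 covers all 43733 bases of ERAP2 on the other strand, and the libraries were stranded. At 6 h both were near 0 on the log2 scale (0.03 ± 0.09 and 0.01 ± 0.09, edgeR adjusted p = 0.923 and 0.973).

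**Figure D3:**
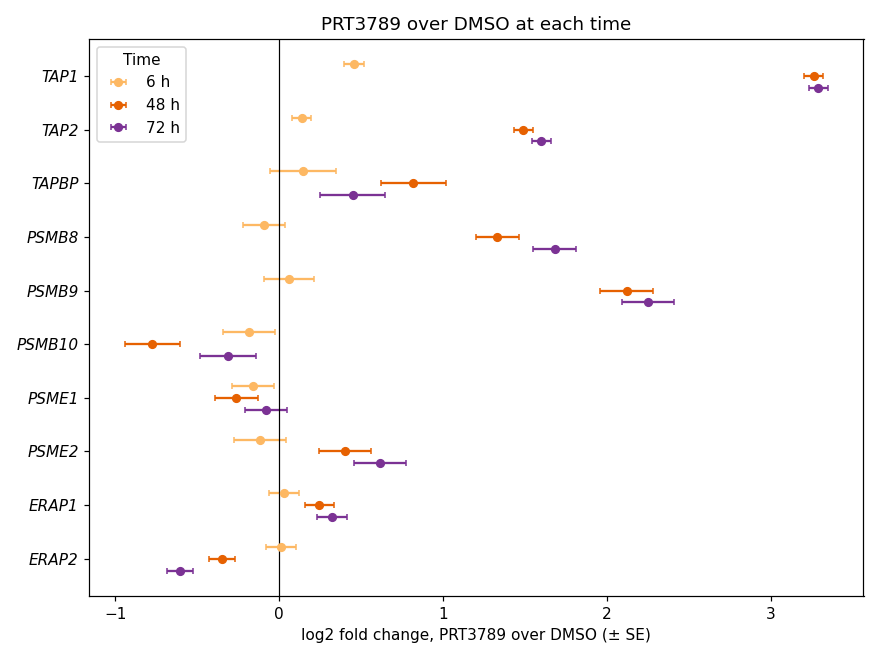
Log2 fold change of PRT3789 over DMSO (points) with its SE (whiskers) for each gene at 6, 48 and 72 h, from the edgeR model of all 18 libraries. TAP1 runs from 0.46 at 6 h to 3.29 at 72 h, and PSMB10 and ERAP2 lie to the left of 0 at 48 and 72 h.

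Counted over the set, 7 of the 10 genes were higher and 2 lower in PRT3789 at 48 h at an adjusted p under 0.05, when 42.1% of all tested genes were called in either direction (21.2% higher, 20.9% lower). At 72 h 6 were higher and 1 lower, beside 43.4% of all genes (21.3% higher, 22% lower). Libraries did not overlap for 10 genes at 48 h, beside 56.2% of all genes, and for 9 at 72 h, beside 61.9%. The choice of the set used these contrasts, so nothing is read from these counts. At 6 h 1 of the 10 was called, TAP1, beside 4.33% of all genes (1.28% higher, 3.04% lower). An unadjusted p under 0.05 was found for 2 of the 10, beside 2365 of all 16291 genes. That background rested partly on 1 library: without DMSO 6 h replicate 1 the model called 1083 genes (574 higher, 509 lower), against 705 (209 higher, 496 lower) with it. A model of only these 6 libraries called 147, of which 21 were higher. The median log2 fold change of the 10 genes was 0.02 at 6 h, 0.61 at 48 h and 0.53 at 72 h, beside -0.01, 0.01 and 0.01 over all tested genes.

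Whether the effect of PRT3789 on these genes changed between 48 and 72 h was estimated as an interaction, which is built from the contrasts behind the choice, so no p-value is given for the 10 genes. The differences ran from -0.37 ± 0.28 (TAPBP) to 0.46 ± 0.24 (PSMB10) on the log2 scale, and that of ERAP2 was -0.26 ± 0.12. No gene of the 16291 was called in this contrast by edgeR (0%), where 1476 had an unadjusted p under 0.05. This count depended on the model. DESeq2 called 95 genes and limma-voom 0. The same edgeR test called 294 genes without the 6 h libraries (125 higher, 169 lower) and 46 with the length trend removed.

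The contrasts between times in DMSO share the DMSO libraries at 48 and 72 h with the contrasts behind the choice. In DMSO alone ERAP2 was the 1 gene of the set called from 6 to 48 h. It averaged 57.7 ± 4.41 CPM at 48 h and 47 ± 3.76 CPM at 6 h (log2 fold change 0.30 ± 0.09, edgeR adjusted p = 0.0116), higher in every 48 h library. In the same contrast 37.2% of all genes were called (17.1% higher, 20.1% lower). The call of ERAP2 was lost when the 2 groups were fitted apart (edgeR adjusted p = 0.0641). The count of called genes of the set was 6 with the length trend removed, beside 6438 of all genes. It was 3 when DMSO 6 h replicate 1 was left out, beside 7305. It was 2 without PRT3789 6 h replicate 2, PRT3789 6 h replicate 3 or DMSO 48 h replicate 3 (6184, 6440 and 5926). The main model called 6059 of all genes. All the called genes of the set were higher at 48 h. Scaling by total counts moved the median of all genes in this contrast by 0.108, and 64.5% of the genes called were then higher at 48 h, against 45.9% with the main scaling.

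From 48 to 72 h in DMSO no gene of the set was called by edgeR, beside 0.54% of all genes (0.387% higher, 0.153% lower). However, 6 of the set had an unadjusted p under 0.05, beside 3221 of all 16291 genes. The groups of 7 did not overlap, beside 30.1% of all genes. TAP1 was at 0.20 ± 0.06 (edgeR adjusted p = 0.106), TAP2 at 0.22 ± 0.06 (0.102), TAPBP at 0.62 ± 0.20 (0.141), PSMB10 at -0.48 ± 0.17 (0.156), PSME1 at -0.35 ± 0.13 (0.191) and PSMB8 at -0.31 ± 0.13 (0.221). This count depended on the model, as did that over all genes. DESeq2, with 541 of 16291 genes called, called 2 of the set, TAP1 and TAP2 (adjusted p 0.00162 and 0.00873), and limma-voom called 0 (122 of all genes). The same edgeR test without the 6 h libraries called 3035 of all genes and 7 of the set, of which 3 were higher and 4 lower at 72 h. Without DMSO 6 h replicate 1 the count of the set was 2, 1 in each direction, beside 555 of all genes.

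The proteasome outside the inducible subunits was measured with lists of its other parts. Beside the counts of this and the later lists, 1.28% of all tested genes rose and 3.04% fell at 6 h, 21.2% rose and 20.9% fell at 48 h, and 21.3% rose and 22% fell at 72 h. None of the 14 constitutive subunits of the core was called at 6 h. At 48 h 3 of 14 fell and 0 rose, and at 72 h 1 fell and 1 rose. With the length trend removed 2 fell and 3 rose at 48 h, and 1 fell and 3 rose at 72 h. The core subunits named by their p at 72 h were PSMB2 (-0.27 ± 0.06, edgeR adjusted p = 0.000969) and PSMB5. Of 19 subunits of the regulatory particle, which recognises and unfolds ubiquitinated proteins, 5 fell at 48 h and 3 at 72 h and 0 rose at either time. PSMD13 was at -0.26 ± 0.08 at 72 h (edgeR adjusted p = 0.0136) and PSMD3 at -0.18 ± 0.06 (0.0189). Both calls were lost without PRT3789 72 h replicate 2 or DMSO 72 h replicate 1, and that of PSMD3 also without PRT3789 72 h replicate 1 (0.0526 to 0.0899). The PSMD3 call was lost too with total counts (0.117) and with no filter (0.0503). Of 13 other activators, inhibitors and assembly factors 4 fell at 48 h and 2 at 72 h; PSME3, the subunit of the nuclear PA28 form, was at 0.14 ± 0.06 at 72 h (0.0875). The share of core subunits that fell at 48 h is close to that of all genes, and these counts are no result about the lists. The counts were unstable: over all settings 1 to 9 core subunits and 2 to 11 regulatory subunits fell at 48 h, and 1 to 6 and 0 to 9 at 72 h. The list medians at 72 h were -0.02, -0.08 and 0.00, against 0.01 over all tested genes.

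In DMSO these lists were lower at the later time. At 48 h against 6 h 14 of 14 core subunits and 19 of 19 regulatory subunits fell, with medians of -0.62 and -0.47 on the log2 scale. Of the 13 other activators, inhibitors and assembly factors 8 fell and 0 rose. Over all genes 20.1% fell and 17.1% rose. With the length trend removed 14, 18 and 9 fell, and with only the groups compared 12, 16 and 5. The PSMB9 to PSMB6 ratio in DMSO, 0.256 at 48 h and 0.157 at 6 h, thus changed while PSMB9 itself was at 0.07 ± 0.15 (edgeR adjusted p = 0.763).

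Class I heavy chains were higher along with the transporter. Of 11 chains and loading partners tested, 5 rose at 48 h and 7 at 72 h, and none fell at either time in the main model. Over all settings 5 to 6 rose and 0 to 2 fell at 48 h, and 6 to 8 rose and 0 to 1 fell at 72 h. HLA-F, a non-classical class I chain, rose 2.84-fold at 48 h and 4.87-fold at 72 h (1.51 ± 0.17 and 2.28 ± 0.18, edgeR adjusted p = 1.79e-06 and 1.07e-08). HLA-E, a ligand of NK cell receptors, rose 1.91- and 2.47-fold (0.93 ± 0.06 and 1.31 ± 0.06). The classical chains HLA-B and HLA-C were at 0.37 and 0.51 at 48 h and at 1.04 and 0.87 at 72 h, and both were called at both times. Reads of these chains can be shared between near-identical copies, which the counting may have split. B2M, the light chain, was not called at either time (-0.27 ± 0.22 and 0.28 ± 0.22, edgeR adjusted p = 0.345 and 0.339).

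Of 7 cytosolic and endosomal peptidases that act on class I peptides, 2 rose and 1 fell at 48 h, and 1 rose and 3 fell at 72 h. The count at 48 h is close to the 42.1% called over all genes, and 43.4% were called at 72 h. The cytosolic aminopeptidase NPEPPS rose (0.51 ± 0.09 and 0.38 ± 0.09, edgeR adjusted p = 0.000277 and 0.00282). LNPEP, the endosomal relative of the ERAP enzymes, fell at 72 h (-0.36 ± 0.10, 0.00577).

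Interferon ligands were near absent. Of 12 interferon and TNF ligand genes only LTB passed the filter, and no other reached more than 5 counts in a library. LTB fell at 48 and 72 h (-2.67 and -2.40), and its level ran from 0.0348 to 2.12 CPM over all libraries. In DMSO it also fell from 6 to 48 h (-2.09). With only the 48 h groups fitted it did not pass the filter, so its values at the later times rest on few counts. Of 21 genes for interferon receptors, JAK kinases, STAT and IRF factors, 1 rose and 2 fell at 6 h, and 9 rose and 1 fell at each later time.

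IRF1, a transcription factor that binds ISRE motifs, was at 165.1, 159.3 and 170.2 CPM in PRT3789 and 50.12, 52.01 and 49.96 CPM in DMSO at 48 h. At 72 h IRF1 was at 174.4, 171 and 170.5 CPM in PRT3789 and 51.78, 49.11 and 47.8 CPM in DMSO. It rose 3.25-fold at 48 h and 3.47-fold at 72 h (1.70 ± 0.06 and 1.79 ± 0.06, edgeR adjusted p = 3.84e-13 and 1.5e-13). At 6 h it was at 50.27, 46.13 and 49.44 CPM in PRT3789 and 41.44, 42.54 and 39.72 CPM in DMSO (0.24 ± 0.06, edgeR adjusted p = 0.0239), a call that ended with the 6 h libraries fitted apart (0.415). It also ended without PRT3789 6 h replicates 1 or 3 or DMSO 6 h replicate 3 (0.0559 to 0.112), with the replicate block (0.0739) and with no filter (0.121).

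IRF9, a DNA-binding factor of type I interferon signalling, was at 0.00 ± 0.13 at 48 h (edgeR adjusted p = 0.983) and 0.35 ± 0.13 at 72 h (0.039). The IRF9 call was lost without PRT3789 72 h replicates 1 or 3, DMSO 72 h replicates 2 or 3 or DMSO 48 h replicate 2 (0.0507 to 0.165). SOCS1, an inhibitor of JAK kinases, fell at every time, to 3.05 ± 0.659 CPM in PRT3789 against 7.8 ± 0.559 CPM in DMSO at 6 h and to 1.13 ± 0.168 CPM in PRT3789 against 9.18 ± 1.18 CPM in DMSO at 72 h (-1.35, -2.55 and -3.02 at the 3 times, edgeR adjusted p = 5.24e-05, 4.57e-09 and 5.4e-10).

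Among 14 transcription factors of MHC genes and NF-kB subunits, 1 rose at 6 h, and 9 rose and 1 fell at 48 h and again at 72 h. RELB, a subunit of the non-canonical NF-kB pathway, was at 16.5 ± 0.824 CPM in PRT3789 and 10 ± 1.33 CPM in DMSO at 6 h (0.72 ± 0.10, edgeR adjusted p = 0.000181; 0.0538 with the 6 h libraries fitted apart). It was at 39.4 ± 2.1 CPM in PRT3789 and 12.8 ± 1.07 CPM in DMSO at 72 h (1.62 ± 0.09, 3.02e-10). NFKB2, the partner subunit of RELB, rose at 48 and 72 h (1.31 ± 0.09 and 1.20 ± 0.09) and was at 0.04 ± 0.09 at 6 h. NLRC5, the transactivator of class I genes, was low: it averaged 5.42 ± 0.177 CPM in PRT3789 and 2.87 ± 0.315 CPM in DMSO at 72 h (0.91 ± 0.21, edgeR adjusted p = 0.00149). At 48 h NLRC5 was at 0.68 ± 0.21 (0.0134; 0.0721 without PRT3789 replicate 3 and 0.0724 without DMSO replicate 3) and at 6 h at -0.50 ± 0.24 (0.358).

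**Figure D4:**
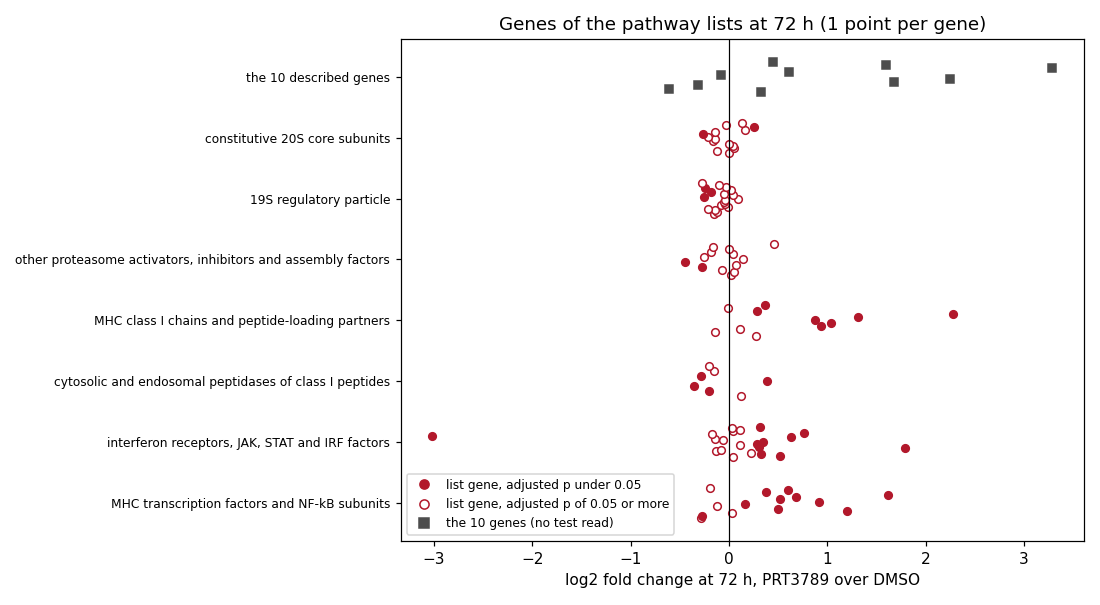
Log2 fold change of PRT3789 over DMSO at 72 h for the 10 described genes (grey squares, no test read) and for each tested gene of the pathway lists (circles, filled at an adjusted p under 0.05). Constitutive proteasome genes lie near 0, the class I chains reach 2.28 (HLA-F), and SOCS1 lies at -3.02.

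Close neighbours of the TAP locus differed from each other. Of 5 other genes tested within 100 kb of TAP1, TAP2, PSMB8 or PSMB9, PSMB8-AS1 rose and HLA-DMA fell at 48 and 72 h, and HLA-DOB, HLA-DMB and LOC100294145 were not called. HLA-DMA and HLA-DMB encode the chaperone that loads class II peptides. PSMB8-AS1, a long non-coding RNA, was at 1.06 ± 0.31 at 48 h (edgeR adjusted p = 0.0112) and 1.96 at 72 h. PSMB8-AS1 was low, at 3.38 ± 1.04 CPM in PRT3789 and 0.866 ± 0.234 CPM in DMSO at 72 h (SD, n = 3 each). It overlaps TAP1 by 1292 bases and PSMB8 by 594 bases on the opposite strand. The libraries were stranded, but the strand setting was detected automatically, so its reads may be uncertain. HLA-DMA was at -0.36 ± 0.13 at 48 h (0.0276; -0.15 and 0.308 with the length trend removed, and 0.0567 to 0.0659 without PRT3789 replicates 1 or 2 or DMSO replicate 2; 0.0525 with the replicate block) and -0.48 at 72 h. Next to TAPBP, PSMB10, the PSME genes and the ERAP genes, 3 of 14, 4 of 11, 8 of 15 and 4 of 5 other genes were called at 72 h, beside 43.4% of all genes.

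**Figure D5:**
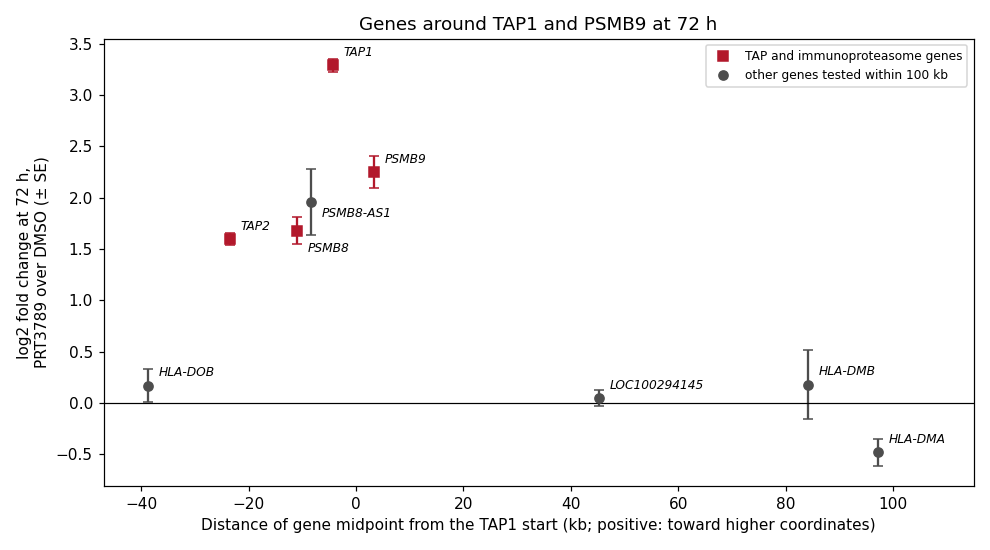
Log2 fold change of PRT3789 over DMSO at 72 h (± SE) for each tested gene near TAP1, by the distance in kb of the gene's midpoint from the TAP1 start. TAP1, TAP2, PSMB8, PSMB9 (red squares) and PSMB8-AS1 lie between 1.60 and 3.29, and the genes farther off on either side lie between -0.48 and 0.18.

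Among 11049 genes with a mean of at least 5 CPM, those whose level over the 18 libraries was most like that of TAP1 were PLAGL1 (Pearson r = 0.995 of log2 CPM), MAP2 (0.995), FAM110C (0.995), IRF1 (0.994) and YTHDC1 (0.992). PLAGL1 is a zinc finger transcription factor, MAP2 a microtubule-associated protein and YTHDC1 a reader of methylated adenosine in RNA. The 18 libraries share 6 groups, of which 2 carry most of the difference, so such values describe that contrast. Within the set, TAP1 correlated with TAP2 (r = 0.993), PSMB9 (0.983) and PSMB8 (0.958), less with PSME2 (0.674), and negatively with PSMB10 (-0.787) and ERAP2 (-0.632). The gene most like each of the others was MRAS for TAP2 (0.994), USP19 for TAPBP (0.990), TMEM9 for PSMB8 (0.993), SLC39A1 for PSMB9 (0.994), PTS for PSMB10 (0.984), MIEN1 for PSME1 (0.923), PDCD6 for PSME2 (0.984), STRN3 for ERAP1 (0.966) and PTPRM for ERAP2 (0.936).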

How the data were processed

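Per the labels, poly(A) RNA of frozen cell pellets was sequenced as strand-specific libraries in 150 bp pairs. Per the submitters' processing notes and the series' design text, the authors ran nf-core/rnaseq 3.17.0 with automatic strand detection: Trim Galore, STAR to GRCh38 (patch 14, annotation release 110) and RSEM. The deposited values are RSEM expected counts per gene symbol, already whole numbers, so the share of each multi-mapped read given to a gene cannot be recovered. No value column was left unused.

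Genes were kept by filterByExpr, which left 16291; the rest held at most 0.0482% of any library's counts. After TMM scaling, edgeR 4.0.16 under R 4.3.3 gave two-sided robust quasi-likelihood F tests in 1 model of all 18 libraries, with 1 mean per group. Fold changes are edgeR estimates, and p-values were adjusted by Benjamini-Hochberg over all tested genes, with calls under 0.05. Depth limits counting error only. The labels do not say whether libraries of a group came from separate cultures, so the p-values measure the spread between libraries, which may be technical. That spread was shared over times, although 6 h libraries differed more. CPM per kb used the Ensembl canonical transcript (GENCODE 44). The 10 genes, the pathway lists and the tests were chosen with earlier results of these data known. Named beside them were the constitutive counterparts, PSME3, class I chains, NLRC5, IRF1, IRF9, the 2 genes of each list with the smallest p at 72 h and a mean of at least 5 CPM, the genes nearest in likeness, and neighbours within 100 kb. SMARCA2, LTB and members of marker lists were named beside the rule, and some genes the rule names are not reported here. Alternatives were DESeq2 1.42.0 (test and size factors), limma-voom (limma 3.58.1), total counts, other filters, a replicate block, only the groups compared, an adjusted p under 0.01 and each library left out. Removal of the length trend and a fit without the 6 h libraries were added after seeing the data. Replicate numbers are not shown to pair libraries. Over 9 pairs the correlation of deviations from the group means ran from -0.472 to 0.773. With 3 libraries per group and a length trend between libraries, these values cannot decide whether the numbers pair cultures. Protein sequences were not used here.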

Additional observations from a re-analysis of the deposited data

How the results depend on the processing

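The 60 log2 fold changes of the 10 genes were refitted under up to 28 other settings each. No value called in the main model changed sign. Most of the called values are of PRT3789 against DMSO at 48 or 72 h, the contrasts behind the choice. Their stable sign therefore supports no statement. All reversals were in values of at most 0.19 in size. With the length trend removed, ERAP2 at 6 h was -0.01, PSMB10 and PSME2 in DMSO at 48 h against 6 h were 0.18 and 0.25, PSMB9 and ERAP1 in DMSO at 72 h against 48 h were 0.19 and -0.01, and the change of effect of PSMB9 was -0.04. With total counts, TAP2 and PSME2 in DMSO at 48 h against 6 h were 0.07 and 0.01. With 1 library left out, the 6 h value ran from -0.08 to 0.37 for TAPBP, -0.23 to 0.06 for PSMB8, -0.11 to 0.25 for PSMB9, -0.35 to 0.01 for PSMB10, -0.31 to 0.01 for PSME1, -0.28 to 0.08 for PSME2, -0.03 to 0.15 for ERAP1 and -0.04 to 0.12 for ERAP2. For DMSO at 48 h against 6 h it ran from -0.05 to 0.02 for TAP2, -0.08 to 0.21 for PSMB8, -0.09 to 0.27 for PSMB9, -0.29 to 0.07 for PSMB10 and -0.26 to 0.10 for PSME2, and for DMSO at 72 h against 48 h from -0.10 to 0.06 for PSMB9.

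The number of the 10 genes called at 6 h was 0 with only the groups compared, beside 147 of all genes. For DMSO at 48 h against 6 h it was 1 in the main model (6059 of all genes) and 4 with total counts (5883). It was 2 with the 1 CPM filter (6006), 2 by DESeq2 (6334) and 0 with only the groups compared (3384). It was 6 with the length trend removed (6438) and 0 at an adjusted p under 0.01 (3848). With a library left out it was 1 to 3 (4534 to 7305). For DMSO at 72 h against 48 h it was 0 in the main model (88 of all genes) and 2 by DESeq2 (541). It was 2 with only the groups compared (1387), 1 with the length trend removed (261) and 7 without the 6 h libraries (3035). With a library left out it was 0 to 2 (19 to 555). With a library left out the number of the 10 genes called was 7 to 10 at 48 h, beside 5626 to 7652 of all genes. At 72 h it was 7 to 8, beside 6176 to 7732. Other pathway genes called at 6 h were 4 in the main model (705 of all genes) and 8 by DESeq2 (921). They were 8 with the length trend removed (1085) and 1 with only the groups compared (147). With a library left out they were 3 to 12 (476 to 1083), the highest without DMSO 6 h replicate 1. At 72 h they were 39 (7069 of all genes), and 63 with only the groups compared (9089). The cause of these shifts was not tested. With the replicate number as a block the counts of the 10 genes were 1, 10 and 8 at 6, 48 and 72 h, beside 655, 7196 and 7356 of all genes. For the DMSO contrasts they were 3 and 0, beside 6375 and 169. The replicate numbers are not shown to pair libraries. Scaling by total counts moved the share of higher calls at 6 h to 44.3%, against 29.6%. Leaving out DMSO 6 h replicate 1 moved it to 53%, with 1083 genes called. Each of the 10 genes had at least 395 counts in every library, and the counting error at that depth was not set against the spread between libraries.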
